A study of Rattus norvegicus with 9 samples.

Results

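The proteasome transcripts described here are the genes whose symbols begin with Psm followed by a letter from a to g and a number, and whose mean normalised read count was at least 10 over the 9 libraries. Of 42 symbols that matched, 41 passed the minimum, out of 18420 genes in the table. The nearest gene outside it was Psmb11, a subunit of the thymus, with a mean of 0.366 ± 0.746 (SD, n = 9) and at most 1 read in a library. The lowest inside it was Psmb8, with a mean of 197.9 ± 53.0. One of the 41, Psmc3ip, matched by symbol only and encodes a factor of meiotic recombination; it averaged 323.1 ± 71.5 and is left out of the counts below. The other 40 fell into 12 core subunits, 5 genes of the immunoproteasome and its activator, 18 genes of the regulatory particle, 4 assembly chaperones and 1 inhibitor. Psma7, Psmb3, Psmd14, Psmd10, Psme3 and Psme4 were not analysed here.

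RNA was sequenced from kidney cortex of ZDF fa/fa rats, a strain with a defective leptin receptor that becomes obese and diabetic. All 9 samples carry the labels diabetic and Medical Bypass, an intervention set against gastric bypass in the study's title, and the labels used here name no agent, dose, time, age or sex. There is 1 group, so no treated group could be set against a control, and the comparisons below are among replicates and among genes. The labels do not say that the replicates are separate animals, so each p-value reflects the variation among these libraries alone, part of which could be technical.

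The proteasome degrades proteins tagged with ubiquitin. Its barrel-shaped core has outer rings of alpha subunits, which gate the entry, and inner rings of beta subunits, of which Psmb5, Psmb6 and Psmb7 carry the catalytic sites. The regulatory particle caps the core: its non-ATPase subunits bind and free the ubiquitin chain, and its ring of ATPases unfolds the substrate. Interferon gamma induces Psmb8, Psmb9 and Psmb10, which replace Psmb5, Psmb6 and Psmb7 in new cores, and the activator subunits Psme1 and Psme2; this form makes peptides suited to MHC class I. In mouse and human cells the factor Nfe2l1 raises the standard subunit genes when proteasome activity is low, and Irf1 drives the immunoproteasome genes.

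The upstream sequences of 5 members from the standard and inducible sets, and of the transporter gene Tap1, are given here because the genes are compared throughout. Each is the 250 bases before the transcript start in RefSeq on GRCr8, read 5′ to 3′ on the gene's own strand. Capitals mark a pair of GAAA with any 2 bases between them, the core of the interferon-stimulated response element that Irf1 and its relatives bind, in Tap1, Psmb10 and Psme2. In Psmb5 and Psmb6 they mark TGACNNNGC, the core of the antioxidant response element that Nfe2l1 and Nfe2l2 bind.
Psmb9, chr20:4668750-4668999, plus strand: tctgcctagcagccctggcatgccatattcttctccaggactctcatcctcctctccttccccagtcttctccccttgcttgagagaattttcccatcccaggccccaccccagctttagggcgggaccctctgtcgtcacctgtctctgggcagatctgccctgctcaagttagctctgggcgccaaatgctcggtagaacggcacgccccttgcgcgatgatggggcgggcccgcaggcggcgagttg
Tap1, chr20:4668544-4668793, minus strand: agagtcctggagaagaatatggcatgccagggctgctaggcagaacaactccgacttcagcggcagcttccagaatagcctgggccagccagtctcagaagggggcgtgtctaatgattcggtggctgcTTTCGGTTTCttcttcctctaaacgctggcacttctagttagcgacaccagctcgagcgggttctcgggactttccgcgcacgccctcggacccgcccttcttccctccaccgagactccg
Psmb10, chr19:50743293-50743542, minus strand: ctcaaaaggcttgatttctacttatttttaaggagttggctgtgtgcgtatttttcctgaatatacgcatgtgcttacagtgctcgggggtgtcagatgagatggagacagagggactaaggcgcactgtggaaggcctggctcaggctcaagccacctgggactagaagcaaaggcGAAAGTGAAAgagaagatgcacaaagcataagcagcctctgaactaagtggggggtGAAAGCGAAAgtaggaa
Psme2, chr15:33052752-33053001, minus strand: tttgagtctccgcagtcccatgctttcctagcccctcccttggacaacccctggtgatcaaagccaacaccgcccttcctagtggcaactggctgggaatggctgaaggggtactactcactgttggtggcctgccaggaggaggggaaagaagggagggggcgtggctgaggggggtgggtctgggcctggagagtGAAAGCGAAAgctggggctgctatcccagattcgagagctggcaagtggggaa
Psmb5, chr15:32047380-32047629, minus strand: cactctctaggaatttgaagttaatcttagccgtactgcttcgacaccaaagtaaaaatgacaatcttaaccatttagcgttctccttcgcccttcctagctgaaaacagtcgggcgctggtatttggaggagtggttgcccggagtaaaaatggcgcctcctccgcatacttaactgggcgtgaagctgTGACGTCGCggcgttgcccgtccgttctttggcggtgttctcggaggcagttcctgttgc
Psmb6, chr10:55737638-55737887, plus strand: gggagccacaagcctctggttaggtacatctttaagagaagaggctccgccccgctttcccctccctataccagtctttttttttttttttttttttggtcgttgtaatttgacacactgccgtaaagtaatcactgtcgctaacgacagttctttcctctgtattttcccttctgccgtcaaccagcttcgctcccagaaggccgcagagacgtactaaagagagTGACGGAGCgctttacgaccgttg

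Psmb9 and Tap1 are read in opposite directions from starts 456 bases apart, and their windows share 44 bases. Tap1 carries subunit 1 of the pump that brings peptides into the endoplasmic reticulum. In RefSeq, Psmb8 lies between Tap2 and Tap1, so that both subunits of this pump alternate with Psmb8 and Psmb9. Psme1 and Psme2 both neighbour Emc9, and Psmb5 neighbours Psmb11. In Psmb10 the marked motif begins 73 and 17 bases before the start, in Psme2 it begins 53 bases before, and in Tap1 it lies on the other strand, 121 bases before. In Psmb5 and Psmb6 the marked motif begins 60 and 24 bases before the start. None of the other motifs named below matched in these 6 windows.

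Both strands of the same window were searched in 38 of the 40 members and in 33469 promoters of the RefSeq table. The paired GAAA motif was in 2 of 5 immunoproteasome genes, 1 of 12 core genes (Psma4) and 1 of 16 regulatory particle genes (Psmd7), against 3.41% of all promoters. TGACNNNGC was in 4 of 12 core genes (Psma3, Psmb2, Psmb5 and Psmb6), 2 of 16 regulatory particle genes (Psmd1 and Psmd9) and 0 of 5 immunoproteasome genes, against 10.1% of all. TTCNNNGAA, the gamma-activated site, was in Psmb8, Psmc6, Psmd3 and Psmd7, against 7.67% of all. CCAAT was in 17 of the 38 and 34.0% of all, and CCGGAAG, an ETS site, in 10 of the 38 and 7.27% of all. These are matches of letters only, and no occupancy was measured.

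Libraries held 10757440 to 43071223 reads in genes, and the 41 transcripts took 0.437% to 0.572% of them. The lowest share was in replicate 2 and the highest in replicate 5. Values are the authors' counts divided by a size factor per library, so 1 read was worth 0.544 to 1.99 and the lowest count behind any member was 85 reads. They are not corrected for gene length, and so levels are compared between replicates, not between genes. Reads aligned to more than 1 place, which are kept in a row of their own, ran from 14.9% of all counted reads in replicate 2 to 22.1% in replicate 5, and reads outside genes from 22.0% in replicate 5 to 31.3% in replicate 3. The 5 proximal tubule markers measured of a list of 6 summed to between 146644 and 286799, Slc34a1 and Miox among them, so the defining markers of cortex were present.

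The catalytic beta subunits were highest in replicate 5 and near their lowest in replicate 2. Psmb5, the chymotrypsin-like site, ran from 1249 in replicate 2 over a median of 1477 to 2813 in replicate 5. Psmb6, the caspase-like site, ran from 1163 in replicate 3 over 1540 to 2437 in replicate 5. Psmb7, the trypsin-like site, ran from 2689 in replicate 2 over 3348 to 5195 in replicate 5. Replicates 5 and 8 held the highest values of all of these. Psmb1 and Psmb4, which complete the beta ring without a catalytic site, followed: Psmb1 ran from 4194 in replicate 2 over 5248 to 7406 in replicate 5, and Psmb4 from 2891 in replicate 2 over 3800 to 5637 in replicate 5. Psmb2, of the same ring and likewise not catalytic, ran from 1739 in replicate 2 over 2080 to 2984 in replicate 8.

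The alpha subunits spread less, with a median SD of 0.198 on the log2 scale, against 0.309 for the beta subunits. Psma1 ran from 2869 in replicate 1 over 3444 to 3693 in replicate 9, a 1.29-fold range, and its SD of 0.13 on the log2 scale was the smallest in the core. Psma2 ran from 2759 in replicate 2 over 3575 to 3955 in replicate 8, and Psma6 from 2970 in replicate 6 over 3836 to 4252 in replicate 4. None of these was highest in replicate 5. Psma3 ran from 2846 in replicate 1 over 3973 to 4891 in replicate 3, and Psma4 from 3595 in replicate 2 over 4790 to 5321 in replicate 3. Psma5 ran from 1676 in replicate 2 over 2055 to 2681 in replicate 5, and was the alpha subunit with its highest value in replicate 5.

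All 5 immunoproteasome genes were lowest in replicate 2 and highest in replicate 5. Psmb8 ran from 133.6 over a median of 183.0 to 292.8, Psmb9 from 166.2 over 209.6 to 388.7, and Psmb10 from 187.2 over 261.0 to 480.2. The highest value was 2.19, 2.34 and 2.57 times the lowest for Psmb8, Psmb9 and Psmb10 in that order. The activator subunits ranged less: Psme1 ran from 3672 over 4858 to 6244, a 1.70-fold range, and Psme2 from 923.7 over 1276 to 1764, a 1.91-fold range.

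**Figure D1:**
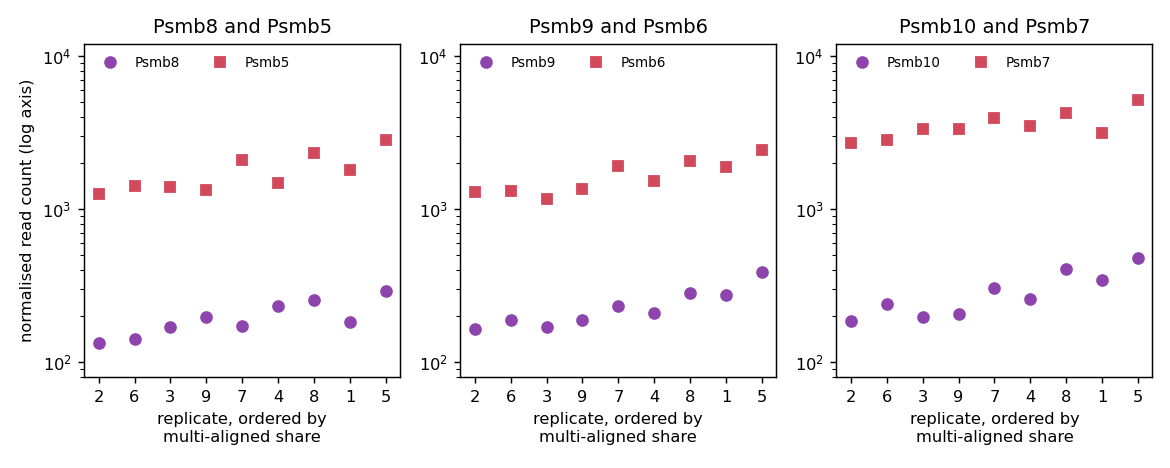
Normalised read counts (log axis) of each inducible catalytic subunit (circles) and the constitutive subunit it replaces (squares) in the 9 replicates, ordered by their percentage of multi-aligned reads. Replicate 5 is highest for all 6 genes, and the vertical distance between genes is not corrected for length.

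Each inducible subunit takes the place of 1 constitutive subunit, so their ratio was followed over replicates; its absolute size is not corrected for length. Psmb9 over Psmb6 held closest, at 0.140 ± 0.0111 (SD, n = 9), with 0.121 in replicate 7 as the lowest and 0.160 in replicate 5 as the highest, 1.31 times it. Psmb8 over Psmb5 averaged 0.115 ± 0.0240, and its highest value, 0.158 in replicate 4, was 1.90 times its lowest, 0.0831 in replicate 7. Psmb10 over Psmb7 averaged 0.0809 ± 0.0168, and its highest value, 0.1104 in replicate 1, was 1.86 times its lowest, 0.0595 in replicate 3. The highest ratio thus fell in a different replicate for each pair, although the inducible genes were all highest in replicate 5. No size-factor choice enters these ratios, since both genes share the library.

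Of the 18 regulatory particle genes, 10 were highest in replicate 5, 5 in replicate 3, 2 in replicate 8 and 1 in replicate 4. Among the ATPases, Psmc4 had the largest SD of the particle, 0.33 on the log2 scale, and ran from 2589 in replicate 2 over 3515 to 5080 in replicate 5. Psmc2, Psmc3 and Psmc5 were likewise highest in replicate 5, with ranges of 1.62, 1.83 and 1.68-fold. Psmc1 and Psmc6 were highest in replicate 3 and lowest in replicate 1; Psmc6 ran from 1713 over 2344 to 2900. Psmc6 thus went against Psmc4 in replicate 5, where it lay below its own mean.

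Among the non-ATPase subunits, Psmd3, Psmd4 and Psmd8 had ranges of 1.80, 1.86 and 1.96-fold. Psmd3, a lid subunit, ran from 3192 in replicate 9 over 3639 to 5739 in replicate 5. Psmd8, also of the lid, ran from 2100 in replicate 6 over 2514 to 4126 in replicate 5. Psmd4, the ubiquitin receptor, ran from 2052 in replicate 2 over 2642 to 3818 in replicate 5. All 3 had their highest value in replicate 5. Psmd2 and Psmd1 are the large scaffolds of the base. Psmd2 ran from 5655 in replicate 2 over 6449 to 8236 in replicate 5, whereas Psmd1 ran from 4067 in replicate 1 over 5639 to 6696 in replicate 3. Psmd11, which braces the particle against the core, ran from 2359 in replicate 1 over 3239 to 3514 in replicate 8, and Psmd6, Psmd7, Psmd12 and Psmd13 had ranges of 1.69, 1.57, 1.55 and 1.61-fold.

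The factors that build or restrain the proteasome spanned both extremes of spread. Psmd5, a chaperone of the base, had the smallest SD of all members, 0.10 on the log2 scale, and ran from 995.4 in replicate 1 over 1073 to 1198 in replicate 8. Psmg4, which with Psmg3 helps to build the alpha ring, had the largest, 0.62, and ran from 363.2 in replicate 9 over 605.7 to 1207 in replicate 5, a 3.32-fold range. Psmg3 ran from 217.0 in replicate 3 over 353.4 to 460.5 in replicate 5. Psmg1 and Psmg2, the other alpha-ring pair, had 1.56 and 1.61-fold ranges: Psmg1 ran from 760.2 in replicate 9 over 933.1 to 1184 in replicate 8, and Psmg2 from 346.4 in replicate 3 over 445.5 to 559.1 in replicate 7. Psmd9, another base chaperone, had a 1.64-fold range. Psmf1, which inhibits the core, ran from 1053 in replicate 9 over 1220 to 1718 in replicate 5.

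**Figure D2:**
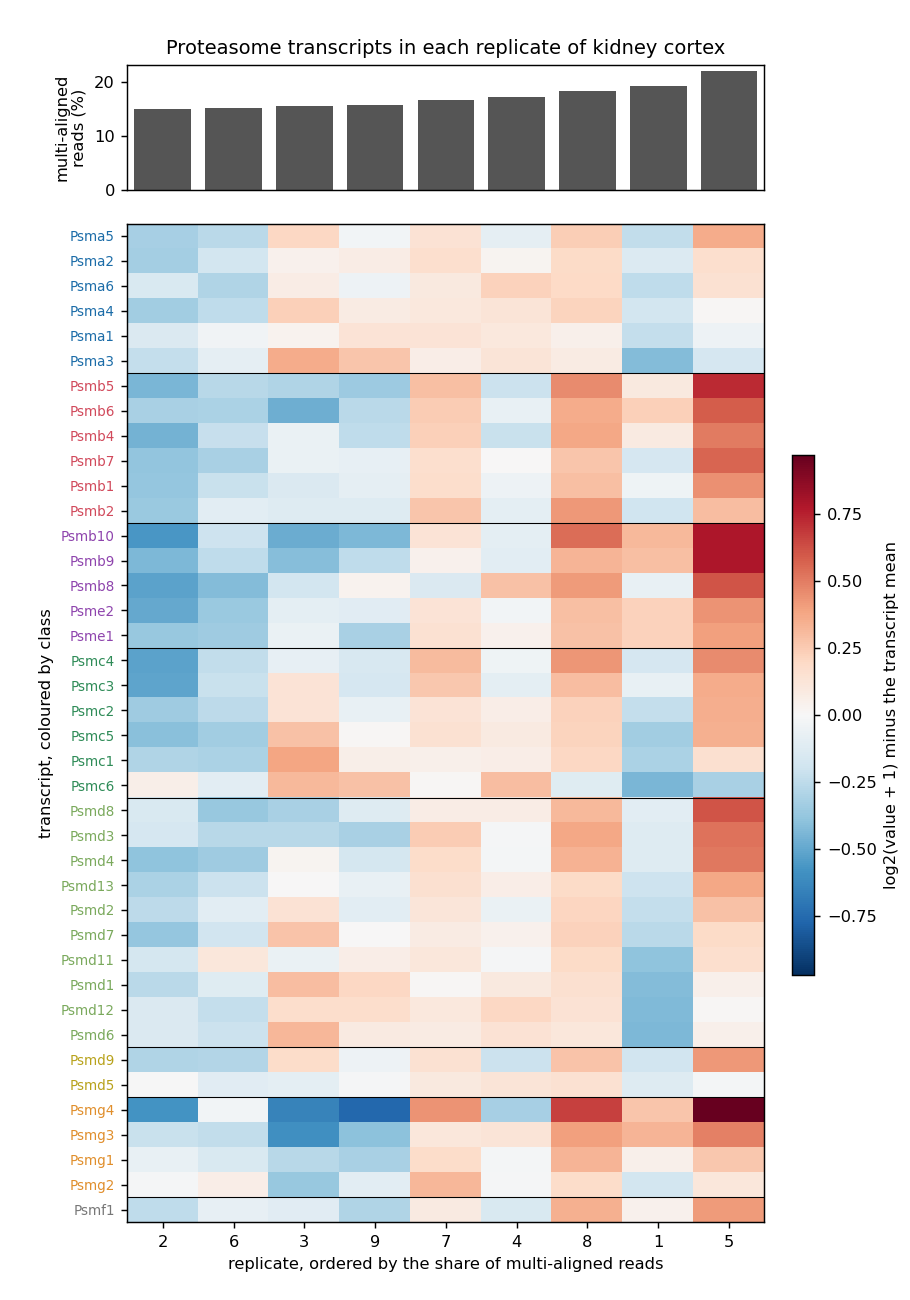
Deviation of log2(value + 1) from each transcript's own mean (colour) for 40 proteasome transcripts in rows, by class, and 9 replicates in columns ordered by the share of multi-aligned reads, which the bars above show in percent. Replicate 5 is red for beta and immunoproteasome genes, while several alpha, Psmc and Psmd rows are pale or blue there and red in replicate 3.

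Averaged over each class, with every transcript centred on its own mean, the immunoproteasome genes moved most between replicates, and the alpha subunits least. The class mean of the immunoproteasome lay at -0.48 on the log2 scale in replicate 2 and at 0.60 in replicate 5, which is a 2.11-fold range. The beta subunits had a 1.88-fold range and the alpha subunits a 1.33-fold range. The regulatory particle had a 1.42-fold range. The classes separated in replicate 1, where the immunoproteasome lay at 0.20, the beta subunits at 0.0024, the alpha subunits at -0.24 and the regulatory particle at -0.25. They separated in replicate 3 too, where the assembly chaperones lay at -0.47 and the immunoproteasome at -0.25, but the alpha subunits at 0.16 and the regulatory particle at 0.10. Over members, replicate 5 was the highest for 24 of 40 (60%), against 22.1% of all genes tested, and replicate 2 the lowest for 22 (55%), against 9.95% of all.

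Members of a class varied together across the 9 replicates, which share normalisation, and these correlations are descriptions without a test. The mean Pearson r between pairs was 0.867 within the immunoproteasome, 0.616 within the regulatory particle and 0.601 within the core. The core was not of one piece: r averaged 0.898 within the beta subunits and 0.705 within the alpha subunits, but 0.434 between alpha and beta. Beta subunits averaged 0.851 with the immunoproteasome, against 0.333 for alpha subunits with it. With every library scaled to the same total in genes, the alpha and beta average was 0.0987 and that within the core 0.359, and this scaling shifted libraries by up to 0.165 on the log2 scale.

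Most members had a smaller SD than the median gene, and none passed a test for variance above the trend. These SDs are not matched for level: members had means of 197.9 or more, whereas all genes tested had means of at least 10. The median SD of log2(value + 1) was 0.260 over the members, against 0.333 over all 13647 genes tested, and 33 of 40 members had an SD under 0.333. The median was 0.375 in the immunoproteasome, 0.253 in the core and 0.244 in the regulatory particle. Each gene's variance was compared with a trend on level in limma, adjusted with Benjamini-Hochberg over all genes tested: 0 of 40 members passed an adjusted p of 0.05, against 0% of all genes. At an unadjusted p of 0.05, 0 members and 573 genes passed, and no other tool was run. The median ratio of variance to trend, which takes level into account, was 0.997 over the members, against 1.11 over all genes. In the immunoproteasome that median was 1.46. Psmg4 had the largest ratio of variance to trend among members, 5.29, with an adjusted p of 0.957. The trend was fitted to these same genes and no gene passed, so the test does not set the members apart from other genes.

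**Figure D3:**
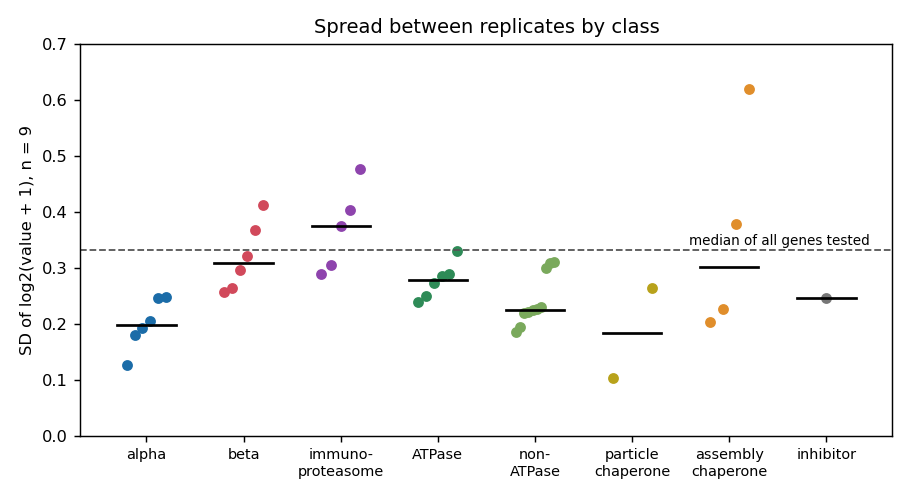
SD of log2(value + 1) over 9 replicates for each transcript (points) by class, with the class median as a bar and the median of all genes tested as a dashed line. Psmg4 at 0.62 and Psmd5 at 0.10 are the extremes, and 3 of the 5 immunoproteasome genes lie above the line.

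Replicates with more Psmb5 had more of the other beta subunits and of every immunoproteasome gene. This was measured as a limma slope of each gene on the Psmb5 level, given as log2 change per SD of that level and adjusted over all genes tested. Of 39 members 23 were higher and 0 lower with Psmb5, against 21.8% of all genes higher and 22.4% lower (44.2% in either direction). By class, 5 of 5 beta subunits, 5 of 5 immunoproteasome genes, 1 of 6 alpha subunits, 8 of 18 regulatory particle genes, 3 of 4 assembly chaperones and Psmf1 were higher. The median slope over members was 0.20, against 0.01 over all genes. Of the alpha subunits 5 of 6 had a positive slope, against 7089 of 13646 genes, but that of Psma1 was only 1.37e-05. The median slope of the alpha subunits was 0.08, against 0.26 in the beta subunits. Whether the alpha and beta slopes differ was not tested.

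Psmg4 had the steepest slope on Psmb5 of the members, 0.59 ± 0.07 (SE), with an adjusted p of 0.000164. Psmb10 followed at 0.46 ± 0.07 (adjusted p = 0.000292) and Psmb9 at 0.38 ± 0.07 (adjusted p = 0.00103), while Psmb8, the counterpart of Psmb5 itself, had 0.28 ± 0.09 (adjusted p = 0.0294). Psmb6 had 0.35 ± 0.05 (adjusted p = 0.000313) and Psmb4 0.31 ± 0.05 (adjusted p = 0.000396). In the regulatory particle Psmc2, Psmc3, Psmc4, Psmd3, Psmd4, Psmd8, Psmd9 and Psmd13 passed. Psma5 was the alpha subunit that passed, at 0.17 ± 0.06 (adjusted p = 0.0430). Psmc6 had a slope of -0.17 ± 0.07 with an adjusted p of 0.0658. Without replicate 5, 16 members and 3623 genes passed, and with the share of multi-aligned reads in the same fit 0 members and 0 genes did.

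That share was itself higher where Psmb5 was higher. On the multi-aligned share alone, 17 of 40 members were higher and 0 lower, against 16.3% of all genes higher and 18.7% lower (35.0% in either direction). They were all 5 immunoproteasome genes, 5 of 6 beta subunits (Psmb2 did not pass), Psmc4, Psmd3, Psmd4, Psmd8, Psmg3, Psmg4 and Psmf1. None of the 6 alpha subunits passed. Psmb9 had 0.39 ± 0.07 per SD of the share (adjusted p = 0.00227), Psmb10 0.44 ± 0.08 (adjusted p = 0.00253) and Psmb5 0.36 ± 0.07 (adjusted p = 0.00394), all by limma. Without replicate 5, 6 members and 1740 genes passed.

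On the share of reads outside genes, 19 of 40 members were lower and 0 higher, against 13.4% of all genes lower and 15.7% higher (29.1% in either direction). All 17 members called on the multi-aligned share were among the 19, joined by Psmb2 and Psmd13. Both are shares of the same counted reads. Replicate 5 had the highest multi-aligned share, 22.1%, and the lowest outside-gene share, 22.0%. The calls on the shares are therefore not independent, and nothing is concluded from their overlap. Psmd8 had -0.29 ± 0.05 per SD of that share (limma, adjusted p = 0.00567). Without replicate 5, 8 members and 1961 genes passed, and with every library scaled to the same total 11 members did. The 21 members called on neither share included the 6 alpha subunits. What these shares contribute to the members' values was not tested.

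**Figure D4:**
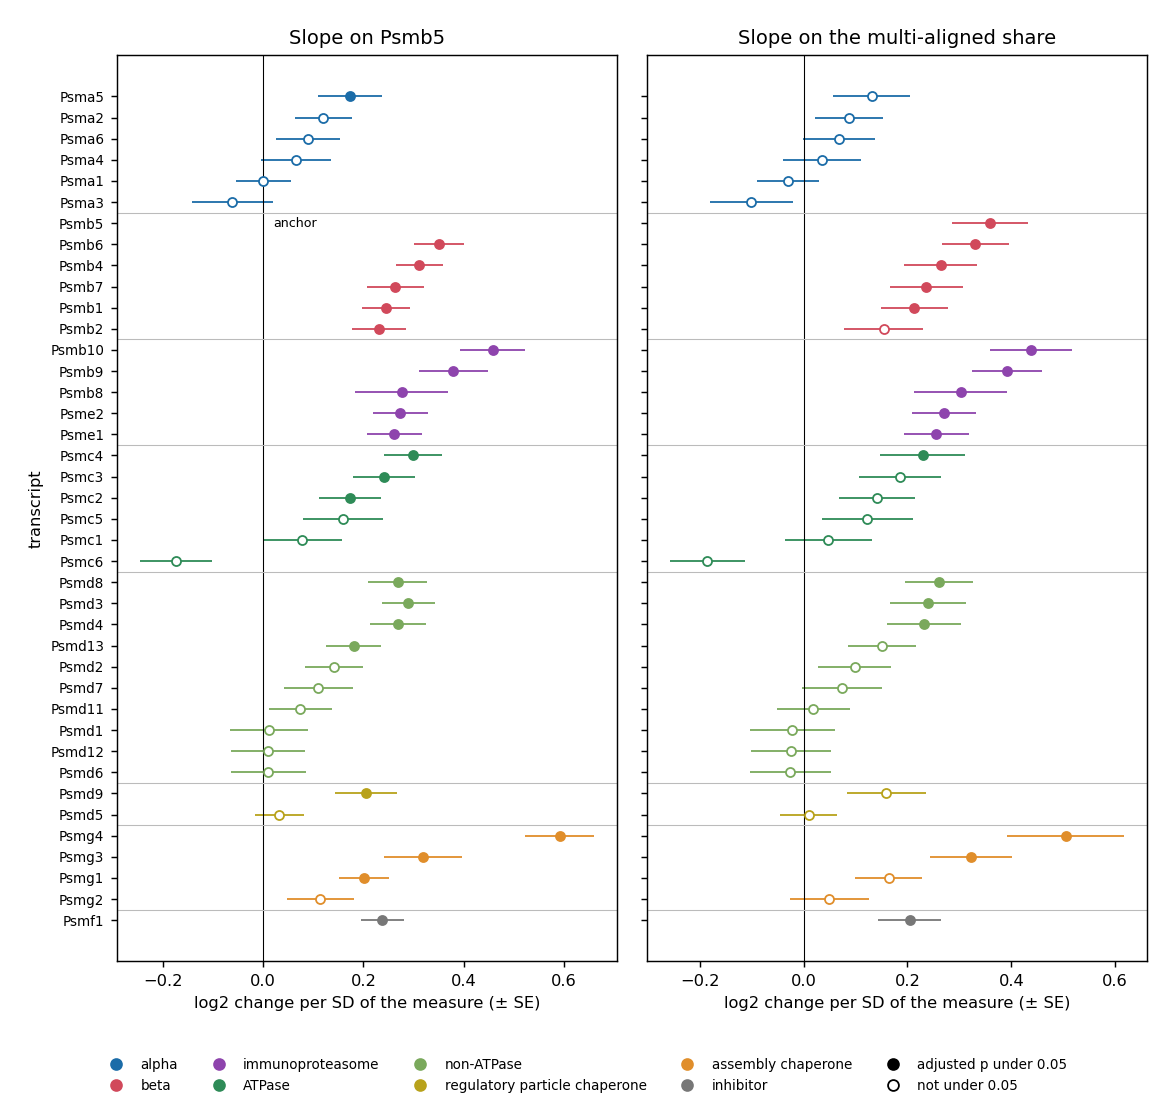
Slope of each transcript on the Psmb5 level (left) and on the share of multi-aligned reads (right), as log2 change per SD of the measure with its SE, by class; filled points have an adjusted p under 0.05 in limma. Beta and immunoproteasome points lie right of 0 in both panels, and alpha points straddle 0.

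Reads from near-identical copies can be lost as multi-aligned. For 15 of the 40 members, RefSeq lists a pseudogene named after the gene. They are Psma2, Psma3, Psma5, Psma6, Psmb4, Psmb6, Psmb7, Psmc4, Psmc6, Psmd1, Psmd8, Psmd12, Psme1, Psme2 and Psmg4. Their values are uncertain for that reason. Copies under other names were not looked for, so the other members may have them too. On the multi-aligned share, 8 of these 15 and 9 of the other 25 were higher and 0 lower. Of all genes 16.3% were higher and 18.7% lower (35.0% in either direction). Whether the 15 and the 25 differ was not tested.

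On the Psmb8 level 38 of 39 members had a positive slope, against 7229 of 13646 genes, but the share that passed was near that of all genes. With the Psmb8 level as the measure, 1 of 39 members was higher and 0 lower, against 0.989% of all genes higher and 2.73% lower (3.72% in either direction). Psmb7 was the member called, at 0.26 ± 0.06 (limma, adjusted p = 0.0499). Psmd8 had 0.27 ± 0.07 (adjusted p = 0.0504) and Psmb5 0.30 ± 0.09 (adjusted p = 0.0720). The count rested on single libraries: it was 9 members and 1634 genes without replicate 7, 10 members and 1762 genes without replicate 9, 3 members and 817 genes without replicate 1, and 0 of both without any 1 of replicates 2, 3, 4, 5, 6 and 8. Fitted on recovered reads, edgeR gave 1 member and 419 genes, and DESeq2 gave 15 members and 2500 genes. It was 0 at a pseudocount of 5, with every library scaled to the same total, without the minimum on low values, and with the multi-aligned share in the fit. Whether the slopes on Psmb5 and on Psmb8 differ was not tested.

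The regulators Irf1 and Nfe2l1 varied 1.61 and 1.30-fold, and no member passed the threshold on either. Irf1 ran from 265.7 in replicate 2 over 330.9 to 429.0 in replicate 5, and Nfe2l1 from 2235 in replicate 8 over 2567 to 2901 in replicate 9. On Irf1, limma called 0 of 40 members, against 0.00733% of all genes higher and 0% lower; 15 members and 4329 genes passed at an unadjusted p of 0.05. Psmb9 had 0.36 ± 0.08 per SD of Irf1 (adjusted p = 0.0877) and Psmb10 0.40 ± 0.10 (adjusted p = 0.0877). On the same measure edgeR called 0 members and 1 gene, DESeq2 called 6 members and 1772 genes, and limma called 6 members and 1998 genes without replicate 9. On Nfe2l1, limma called 0 of 40 members, against 0% of all genes in either direction, with 2 members and 1604 genes at an unadjusted p of 0.05. The median slope on Nfe2l1 was -0.06 over the members, against -0.0049 over all genes; edgeR and DESeq2 called 0 members, and limma called 7 members and 3867 genes without replicate 5.

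Some genes of peptide loading also followed Psmb5. Of 12 measured genes of the MHC class I list, 6 were higher with Psmb5 and 1 lower, against 21.8% of all genes higher and 22.4% lower. RT1-A1, a class I heavy chain and the most variable of the list, ran from 1278 in replicate 3 over 2182 to 4379 in replicate 5, with a slope of 0.54 ± 0.08 (limma, adjusted p = 0.000292). RT1-A2, RT1-CE10, Tap1, Tap2 and Tapbp were the others that were higher; Tap1, which shares its upstream region with Psmb9, had 0.25 ± 0.09 (adjusted p = 0.0443). Erap1, which trims peptides, was lower, at -0.15 ± 0.05 (adjusted p = 0.0317). Calr, Pdia3 and B2m, the light chain of class I molecules, did not pass; B2m had 0.15 ± 0.07 (adjusted p = 0.0895). Tap2 had a mean of 16.4, near the minimum. None of these calls, nor any in the lists that follow, held with the multi-aligned share in the fit.

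Most of the interferon genes did not pass on Psmb5. Of 13 measured, Isg15 was higher with Psmb5, at 0.44 ± 0.15 (limma, adjusted p = 0.0348), Ifit2 was lower, at -0.22 ± 0.08 (adjusted p = 0.0380), and 11 did not pass. That is 1 of 13 in each direction, against 21.8% of all genes higher and 22.4% lower. Stat2 did not pass, nor did Cxcl9, the most variable, which was listed at 0 in replicate 9.

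Of the partners of the proteasome, 3 of 7 tested were lower with Psmb5 and 0 higher, against 22.4% of all genes lower and 21.8% higher; the share called was near the 44.2% of all genes called in either direction. They were Usp14, a deubiquitinase on the regulatory particle, Ube3c, a ubiquitin ligase that binds it, and Zfand5, an activator. Zfand5 had -0.27 ± 0.06 (limma, adjusted p = 0.00409), Ube3c -0.23 ± 0.05 (adjusted p = 0.00541) and Usp14 -0.18 ± 0.07 (adjusted p = 0.0485). Sem1, a small lid subunit and the most variable of those tested, ran from 2227 in replicate 2 over 3200 to 5377 in replicate 3 and did not pass. Txnl1 did not pass either. Of the 4 regulators of proteasome genes, Ddi2, the protease that activates Nfe2l1, was lower, at -0.19 ± 0.05 (adjusted p = 0.0116), while Nfe2l1, Nfe2l2 and Ngly1 did not pass.

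Genes that supply and deliver ubiquitin were among those that followed Psmb5. Of the 12 measured, 6 were higher with Psmb5, 1 was lower and 5 did not pass, against 21.8% of all genes higher and 22.4% lower (44.2% in either direction). Those higher included Ubb and Rps27a, which encode ubiquitin, Uba1, the activating enzyme, and Ubqln4, a shuttle to the proteasome. Ubb ran from 18467 in replicate 2 over 20866 to 32044 in replicate 8 and had 0.28 ± 0.06 (limma, adjusted p = 0.00447). Ubqln2 was lower, at -0.17 ± 0.05 (adjusted p = 0.0117), and Vcp did not pass.

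Leukocytes carry much immunoproteasome, so their markers are given beside it. Of 16 markers 14 were in the table, 8 of them past the minimum, and the sum of the 14 ran from 2229 in replicate 3 to 3212 in replicate 5. Of these 8, 3 were higher with Psmb5, 1 was lower and 4 did not pass, against 44.2% of all genes called in either direction. C1qa, C1qb and C1qc, of macrophages, were higher, and C1qc had 0.45 ± 0.07 (limma, adjusted p = 0.000508). The macrophage markers Adgre1 (-0.11, adjusted p = 0.327), Csf1r (0.06, adjusted p = 0.432) and Cd68 (0.22, adjusted p = 0.0798) did not pass, and nor did Cd4. Ptprc, found on all leukocytes, was the marker that was lower, at -0.50 ± 0.07 (adjusted p = 0.000317), and lowest in replicate 5. On the Psmb8 level, 2 of these 8 were higher and 0 lower, against 0.989% of all genes higher and 2.73% lower. They were C1qa, at 0.42 ± 0.09 (limma, adjusted p = 0.0495), and C1qb, at 0.33 ± 0.08 (adjusted p = 0.0499). Ptprc did not pass on Psmb8, at -0.35 ± 0.13 (adjusted p = 0.112). As given above, calls on Psmb8 rested on single libraries. The lymphocyte markers Cd3e, Cd3g, Cd8a, Cd79b, Ms4a1 and Nkg7 had means from 1.15 to 8.22, with Cd3e at 0 in replicate 9 and Ms4a1 at 0 in replicate 3. In a bulk sample fewer cells of a type and less RNA per cell cannot be told apart. The part of leukocytes in the immunoproteasome values was not tested.

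Genes outside the family whose profile over the 9 replicates was most like it were named by Pearson r with the mean z-score of a class, among 10492 genes with a mean of at least 100. For core plus regulatory particle these were Ldhb (r = 0.986), Magoh, Fh, Cxcl16 and Atp5f1b (r = 0.976), followed by Hmox2, Atp5h, Sdhb, Etfa and Cstb. For the immunoproteasome they included Zmat5 (r = 0.991), Supt4h1, Prdx2 and Nop10 (r = 0.981), followed by Med10, S100a16, RGD1562114, Snrpd2 and Fis1. No gene was in both lists, but lists of 10 from 10492 genes would seldom share one, so nothing is concluded from it. Neither list held a gene of the MHC class I or interferon lists. Of those, Cxcl9, Tap2, Nlrc5, Isg15, Mx1, Ifit3 and Mx2 had means under 100 and could not enter. Lists of 10 from 10492 genes would seldom hold any of the others, so nothing is concluded from their absence either.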

How the data were processed

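Kidney cortex of 9 replicates in 1 group was measured by RNA-seq from stranded mRNA libraries, per the labels' protocols. HTSeq 0.6.1p1, DESeq2, FastQC 0.11.2, MultiQC 0.9 and the build Rnor_5.0 are listed in the submitters' processing notes, with the aligner, the DESeq2 version and the strand setting of the counting not given in the sources used here. Without the strand setting, reads of overlapping antisense genes cannot be told apart. The deposited signal is gene counts that the authors divided by a size factor per library; depth is in the report. Whole reads were recovered from it to within 0.1 read, and the read counts of all 36 pairs of libraries differed beyond counting error, with a chi-square per degree of freedom of at least 19.3.

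Values were tested as log2(value + 1) for 13647 genes with a mean of at least 10, with limma 3.58.1 in R 4.3.3 (trended, robust) and Benjamini-Hochberg adjustment over all genes, threshold 0.05. The 10 members with the smallest p in each slope fit, those with the largest and smallest spread, and the leading genes of each list are named. Alternatives were pseudocounts of 0.5 and 5, TMM scaling, a common total, no minimum, a minimum of 100, each replicate left out, edgeR 4.0.16 and DESeq2 1.42.0 on recovered reads, and the multi-aligned share as a covariate. The slope and variance fits were tried on simulated data drawn independently for each gene. Variation shared by many genes across libraries was not imitated. Levels and ratios per coding length had been planned but no lengths were used here, so values stand uncorrected. RefSeq (GRCr8) gave names, neighbours and upstream sequences; its build differs from the files', so they were joined by symbol. Members and lists were chosen with earlier results of these data known. The splits into alpha, beta, ATPase and non-ATPase genes and by pseudogene, the counts of highest and lowest replicates, the class means, the overlap of calls, the motifs and the printed promoters were chosen after values were seen. The values of some genes that the naming rule covers are not reported here.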

Additional observations from a re-analysis of the deposited data

Results flagged for a closer look

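Of 51 sets of 9 values checked for a replicate that lies apart from the others, 1 was set apart: the share of reads outside genes was lowest in replicate 5, at 22.0%, and its gap to the next replicate, 27.2% in replicate 8, was 0.555 of the whole range. Chance sets apart about 1 such set in 20. None of the 40 proteasome transcripts, the 3 ratios or the class means was set apart by the same measure.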

How the results depend on the processing

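Of the alternatives run on the summary values, 308 values kept their main reading and 58 moved. A change of direction was looked for on single named members only. Of those on single named members, 510 stayed called in the same direction and 28 lost the call, 11 of them with the multi-aligned share as a covariate and 9 without replicate 5. With that covariate the Psmb5, Psmb8 and Irf1 fits called 0 genes and 0 members. Psmb8 members called were 0 at a pseudocount of 5, 2 with TMM scaling and 2 at a minimum of 100; genes and members were 0 with a common total and without a minimum, and 2500 and 15 with DESeq2. Irf1 genes were 0 with TMM or a common total, and 1772 with 6 members by DESeq2. DESeq2 called 7 genes on Nfe2l1. A common total gave 11 members on the outside-gene share, median SDs of 0.192 in the core and 0.190 in the regulatory particle, and mean r of 0.359 within the core, 0.340 within the regulatory particle and 0.0987 between alpha and beta. The cause was not tested.

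Leaving out each replicate gave 3623 to 6445 genes and 16 to 25 members on Psmb5, 0 to 1762 genes and 0 to 10 members on Psmb8, 0 to 1998 genes and 0 to 6 members on Irf1, and 0 to 3867 genes and 0 to 7 members on Nfe2l1. It gave 1740 to 4978 genes and 6 to 22 members on the multi-aligned share, and 1961 to 5390 genes and 8 to 22 members on the outside-gene share. The single gene called on Irf1 was lost without any 1 of replicates 1, 2, 3, 4, 5 and 7. The variance test called 0 genes in each alternative run. Mean r ranged over 0.513 to 0.657 within the core, 0.805 to 0.891 within the immunoproteasome, 0.560 to 0.674 within the regulatory particle and 0.300 to 0.526 between alpha and beta. Depth limits the low genes most: the smallest library held 85 reads of Psmb8 and of Psmb9. No paired analysis was possible because there is 1 group.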
